A study of Homo sapiens with 12 samples.

Results

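The unfolded protein response (UPR) and the integrated stress response were followed in LNCaP cells through 41 genes of the 36137 in the count table. The 41 genes were taken as a list of 15 chaperones and folding factors of the endoplasmic reticulum (ER), 7 components of ER-associated degradation, 3 genes of protein entry into the ER, 5 sensors and transcription factors, and 11 genes headed by the transcription factor ATF4. All 41 were listed in the table, and all 41 were among the 18468 genes with enough counts to be tested. LNCaP is an established androgen-sensitive prostate cancer cell line that came from a lymph node metastasis. Every culture was transfected with an siRNA for 48 h, starved of serum for 12 h and then treated for 24 h. The 4 groups, each of 3 libraries, were PXN siRNA with 2.5 nM dihydrotestosterone (DHT), PXN siRNA with the ethanol vehicle, non-specific siRNA with 2.5 nM DHT, and non-specific siRNA with vehicle. PXN encodes paxillin, an adaptor protein of focal adhesions, and DHT is the potent natural androgen. Serum starvation and transfection were common to all 4 groups, and no untransfected cells are among them. All libraries are of 1 cell line. Nothing in the labels ties the 3 replicates of a group to separate cultures, and the spread behind each p-value may thus be technical.

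Secreted and membrane proteins fold in the ER with the help of chaperones, and unfolded protein there activates a trio of sensors. IRE1 (gene ERN1) splices the XBP1 mRNA, and the spliced form codes for a factor that raises genes of ER-associated degradation, protein entry and folding. PERK (gene EIF2AK3) phosphorylates the translation factor eIF2, which slows protein synthesis while ATF4 is translated more, and other eIF2 kinases feed the same integrated stress response. ATF6 is cut in the Golgi and then raises chaperone genes. Prostate epithelium is a secretory tissue, and androgen is known to raise the IRE1 and XBP1 branch in prostate cancer cells. Gene counts read neither XBP1 splicing, nor ATF6 cleavage, nor ATF4 protein, so all values are mRNA levels.

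These branches act through short promoter elements, which are shown for the members in which they were found. RefSeq promoters (GRCh38.p14, 250 bases before to 50 after a start site) matched 39 of the 41 genes in 56 windows. Each was searched on both strands for the ER stress response element ERSE (CCAAT and CCACG parted by 9 bases of any kind), for ERSE-II (ATTGG and CCACG parted by 1 base of any kind), for the UPR element UPRE (TGACGTGG) and for a C/EBP-ATF composite site, CARE (TGATGNAA), to which ATF4 binds with a C/EBP partner. ERSE was found in 7 member genes and in 0.0769% of all 35114 promoter windows. ERSE-II was found in 3 members and 0.0541% of windows, UPRE in 2 members and 0.729%, and CARE in 6 members and 3.62%. A match is a run of letters and does not show that a factor binds there. The sequences run 5′ to 3′ on the gene's strand, whose sign is in brackets, with the motif in capitals, and a motif on the other strand stands as its reverse complement.
HSPA5 ERSE, chr9:125241386-125241414 (-): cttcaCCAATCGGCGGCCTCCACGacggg
XBP1 ERSE, chr22:28800598-28800626 (-): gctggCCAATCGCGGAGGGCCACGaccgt
CALR ERSE, chr19:12938379-12938407 (+): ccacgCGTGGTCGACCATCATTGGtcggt
CANX ERSE, chr5:179698773-179698801 (+): cccggCCAATCTTCACACTCCACGaagaa
CRELD2 ERSE, chr22:49918549-49918577 (+): cctctCGTGGCGAACTCGGATTGGgccat
PDIA6 ERSE, chr2:10812848-10812876 (-): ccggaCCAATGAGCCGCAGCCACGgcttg
HSP90B1 ERSE, chr12:103930211-103930239 (+): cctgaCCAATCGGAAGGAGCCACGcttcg
HSP90B1 ERSE, chr12:103930316-103930344 (+): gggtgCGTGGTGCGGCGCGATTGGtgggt
HERPUD1 ERSE-II, chr16:56932016-56932044 (+): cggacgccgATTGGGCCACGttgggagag
SDF2L1 ERSE-II, chr22:21642105-21642133 (+): cctcggaagCGTGGACCAATcaaaaccct
HYOU1 ERSE-II, chr11:119057265-119057293 (-): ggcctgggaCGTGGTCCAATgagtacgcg
HYOU1 ERSE-II, chr11:119057371-119057399 (-): gccccgtgaCGTGGTCCAATcccaggccg
SSR3 UPRE, chr3:156554148-156554177 (-): tctgataacagCCACGTCAgcaaggaaact
ASNS CARE, chr7:97872458-97872487 (-): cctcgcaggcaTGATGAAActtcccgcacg
ATF3 CARE, chr1:212565205-212565234 (+): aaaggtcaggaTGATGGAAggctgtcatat
CEBPG CARE, chr19:33374060-33374089 (+): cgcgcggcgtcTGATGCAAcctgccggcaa
CHAC1 CARE, chr15:40953251-40953280 (+): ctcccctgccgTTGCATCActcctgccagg
HERPUD1 CARE, chr16:56931955-56931984 (+): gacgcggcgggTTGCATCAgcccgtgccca

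The UPRE letters of HYOU1 overlapped its ERSE-II farther from the start, and the CARE letters in the CREB3L2 window lay after the start site and are not shown. HERPUD1 held both an ERSE-II, 117 to 107 bases before its start, and a CARE, 176 to 169 bases before it. The whole upstream window of HSPA5 is shown because this chaperone is the usual readout of the UPR, with its single exact ERSE in capitals, 66 to 48 bases before the start.
HSPA5 upstream, chr9:125241344-125241593 (-): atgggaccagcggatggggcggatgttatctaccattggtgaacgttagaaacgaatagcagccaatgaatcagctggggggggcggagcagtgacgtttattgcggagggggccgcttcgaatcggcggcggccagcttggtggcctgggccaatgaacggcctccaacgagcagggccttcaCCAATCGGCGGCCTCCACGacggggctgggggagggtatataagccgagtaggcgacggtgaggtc

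In cells with non-specific siRNA and vehicle the members spanned a wide range of levels. Levels are in CPM, counts scaled to a common library total. CPM per kb of exon, with exon lengths and positions from GENCODE 29 on GRCh38, were highest for CALR at 642, followed by HSP90B1 at 316 and HSPA5 at 313. These are the lumenal chaperones calreticulin, GRP94 and BiP. The lowest CPM per kb were those of PPP1R15A at 2.34 and VLDLR at 2.34, both in the ATF4 group. Among the regulators, ATF4 stood at 135, XBP1 at 64.2, EIF2AK3 at 12.9, ATF6 at 12.2 and ERN1 at 4.55 CPM per kb. ATF4 and HSP90B1 have processed pseudogenes, and since no source used here says how multiply mapped reads were counted, their levels are less certain.

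The siRNA label was checked on PXN itself, which had 19.9, 18.0 and 16.6 CPM in PXN siRNA cells given DHT and 15.2, 21.2 and 14.9 CPM in PXN siRNA cells given vehicle. With non-specific siRNA, PXN had 113, 99.6 and 104 CPM given DHT and 112, 106 and 107 CPM given vehicle. The PXN siRNA and non-specific siRNA libraries did not overlap. Library totals were 34321000 to 38633456 counts. Mitochondrially encoded genes held 8.22% to 8.55% of counts with PXN siRNA and DHT and 8.13% to 8.94% with PXN siRNA and vehicle, against 5.16% to 6.56% with non-specific siRNA and DHT and 4.69% to 7.55% with non-specific siRNA and vehicle. The library numbered 2 had the highest share in both vehicle groups and also in the group with non-specific siRNA and DHT. Of 15 markers of other cell types 13 were in the table, and their summed level was 65.8 to 74.5 CPM with PXN siRNA and DHT and 62.0 to 64.4 CPM with PXN siRNA and vehicle, against 45.7 to 55.2 CPM with non-specific siRNA and DHT and 45.9 to 55.0 CPM with non-specific siRNA and vehicle. Most of that sum was COL1A1 and VWF. The basal markers KRT5 and TP63, DCN of fibroblasts, PECAM1 of endothelium and PTPRC of leukocytes had at most 3 counts in any library. Others of the list reached more: CD68 6 counts, KRT14 19, LUM 29, ACTA2 152, COL3A1 277 and TAGLN 345. Of the 7 that could be tested, 4 had a positive log2 change with PXN siRNA under both treatments, COL1A1, VWF, TAGLN and ACTA2. The other 3, COL3A1, LUM and KRT14, had a negative one under both, so the sum joins opposite moves. All 9 markers of luminal prostate cells were present. The mitochondrial share and the marker sum moved with the siRNA, and their part in the results was not tested. In bulk RNA, fewer cells of a kind and less RNA per cell cannot be told apart.

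**Figure D1:**
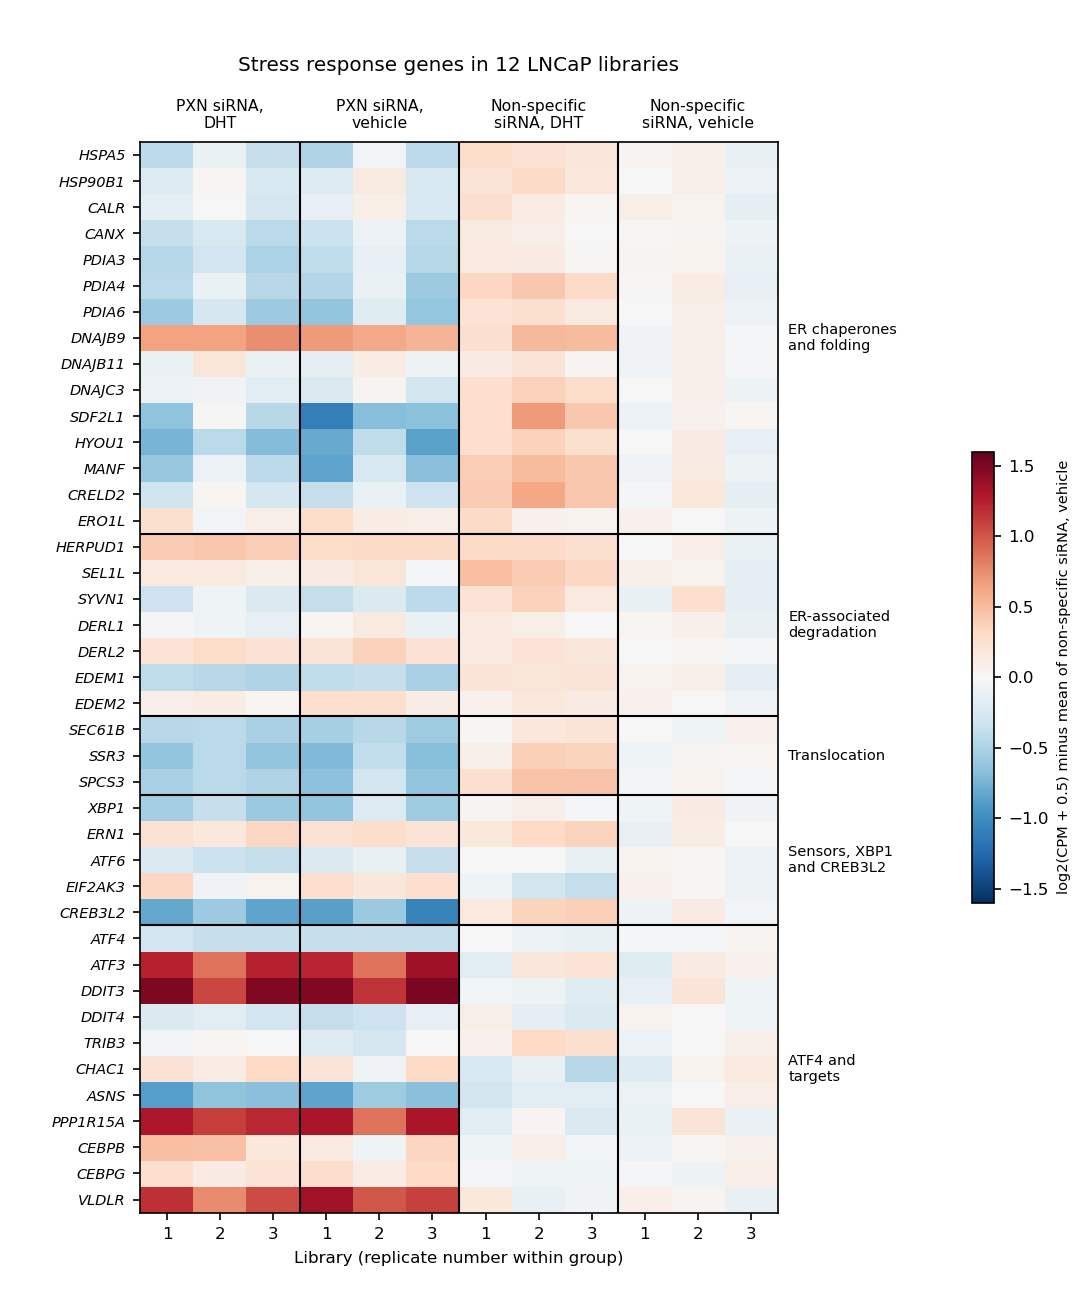
Each row is 1 of the 41 genes and each column 1 of the 12 libraries, ordered by group, with the colour giving log2(CPM + 0.5) minus the mean of the libraries with non-specific siRNA and vehicle. In the PXN siRNA columns most chaperone and translocation rows are blue while DDIT3, ATF3, PPP1R15A, VLDLR and DNAJB9 are red, and in the columns with non-specific siRNA and DHT the chaperone rows are pale red.

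The first question was how the 2 branches differed between PXN siRNA and non-specific siRNA. No group restored PXN or carried a separately labelled PXN siRNA, so PXN loss and other effects of that siRNA cannot be told apart. With PXN siRNA, most transcripts of chaperones fell, as did those of protein entry into the ER and of the factors XBP1, ATF6 and CREB3L2. In the ATF4 group DDIT3, PPP1R15A, ATF3 and VLDLR rose at least 2-fold under both treatments, while ATF4 itself and ASNS fell. A further 26 ATF4 targets, described below, had negative medians. Under vehicle 11 of the 41 members were higher with PXN siRNA, 20 were lower and 10 did not pass an edgeR adjusted p of 0.05. Under DHT 9 were higher, 24 lower and 8 did not pass. These counts stand against a wide background, since 50.2% of all tested genes were called under vehicle (23.9% higher, 26.3% lower) and 51.8% under DHT (25% higher, 26.7% lower). Among the 11080 genes averaging 5 CPM or more, all 41 members among them, 61.7% were called under vehicle (23.4% higher, 38.3% lower) and 63.5% under DHT (24% higher, 39.5% lower). The members' median log2 change was -0.16 under vehicle and -0.28 under DHT, beside medians of 0.02 and 0.03 over all genes and -0.08 and -0.09 over the genes of at least 5 CPM. Of the members, 29 had groups that did not overlap under vehicle and 36 under DHT, where 56.9% and 59.9% of all genes did so.

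The comparisons under vehicle and under DHT share no library but use the same siRNAs. Lower in both were 19 members, which is 19 of the 20 lower under vehicle and 19 of the 24 lower under DHT, and higher in both were 7, of 11 and of 9. The share of all genes called alike in both was not counted. With 50.2% and 51.8% of all genes called, the overlap cannot be read as particular to the members. No member was called in opposite directions. DNAJB11, DERL1 and ERO1L were called in neither. Upper-quartile scaling, which centres on highly expressed genes, moved the median of all genes to 0.12 under vehicle and 0.13 under DHT. With it 60.2% of the genes called under vehicle and 60.7% of those called under DHT were higher, where the TMM scaling used elsewhere gave 4423 of 9276 and 4622 of 9561. Against those medians it gave 13 members higher and 13 lower under vehicle and 11 higher and 21 lower under DHT, so the number lower under vehicle rests on the scaling while DDIT3, PPP1R15A, ATF3 and VLDLR stayed higher.

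Among the sensors, the 3 branches did not move alike. ERN1, the IRE1 kinase and ribonuclease, had 58.5, 55.8 and 62.2 CPM in PXN siRNA cells given DHT and 58.4, 59.9 and 57.6 CPM in PXN siRNA cells given vehicle. With non-specific siRNA, ERN1 had 55.5, 61.9 and 63.2 CPM given DHT and 45.4, 53.5 and 49.5 CPM given vehicle. The libraries with non-specific siRNA and vehicle lay below all 9 others. The log2 change with PXN siRNA was 0.24 (SE 0.07, edgeR adjusted p = 0.0102) under vehicle and -0.03 (SE 0.07, edgeR adjusted p = 0.722) under DHT, and the first was lost without the non-specific siRNA vehicle library numbered 1 (edgeR adjusted p = 0.0759). EIF2AK3, the PERK kinase, had 87.6, 67.3 and 72.4 CPM in PXN siRNA cells given DHT and 84.1, 79.3 and 84.1 CPM in PXN siRNA cells given vehicle. With non-specific siRNA, EIF2AK3 had 66.7, 56.9 and 53.7 CPM given DHT and 73.1, 70.9 and 65.7 CPM given vehicle. Both PXN siRNA groups lay above their non-specific siRNA group. Its log2 change was 0.24 (SE 0.09, edgeR adjusted p = 0.0475) under vehicle and 0.36 (SE 0.10, edgeR adjusted p = 0.00561) under DHT. The call under vehicle was borderline: it was lost by DESeq2 (adjusted p = 0.0612), without a low-count filter and on leaving out 10 of the 12 libraries in turn (edgeR adjusted p up to 0.2, without the non-specific siRNA vehicle library numbered 3), and that under DHT was lost without the PXN siRNA DHT library numbered 1 (edgeR adjusted p = 0.0575) or the non-specific siRNA DHT library numbered 3 (edgeR adjusted p = 0.0501).

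ATF6, the membrane-bound factor of the third branch, had 81.6, 75.9 and 73.9 CPM in PXN siRNA cells given DHT and 81.8, 88.2 and 74.5 CPM in PXN siRNA cells given vehicle. With non-specific siRNA, ATF6 had 96.9, 95.7 and 88.6 CPM given DHT and 100.3, 98.1 and 90.4 CPM given vehicle. Every PXN siRNA library lay below every library with non-specific siRNA. The log2 change was -0.24 (SE 0.07, edgeR adjusted p = 0.0113) under vehicle, not called with upper-quartile scaling (edgeR adjusted p = 0.112), and -0.28 (SE 0.07, edgeR adjusted p = 0.00412) under DHT. XBP1, whose total mRNA, spliced or not, is what was counted, had 133, 150.3 and 128 CPM in PXN siRNA cells given DHT and 126, 167 and 131 CPM in PXN siRNA cells given vehicle. With non-specific siRNA, XBP1 had 200.3, 206 and 192 CPM given DHT and 184, 212 and 187 CPM given vehicle. The PXN siRNA vehicle library numbered 2 stood well above the others of its group but still below all 6 libraries with non-specific siRNA. XBP1 changed by -0.46 (SE 0.10, edgeR adjusted p = 0.00128) on the log2 scale under vehicle and by -0.54 (SE 0.10, edgeR adjusted p = 0.000354) under DHT. CREB3L2, an ATF6-like factor that raises genes of ER-to-Golgi transport, had 47.2, 56.1 and 46.6 CPM in PXN siRNA cells given DHT and 45.7, 55.3 and 39.6 CPM in PXN siRNA cells given vehicle. With non-specific siRNA, CREB3L2 had 93.4, 107 and 109.6 CPM given DHT and 79.4, 91.6 and 81.2 CPM given vehicle. Among the 41 it had the lowest fold change in both comparisons, falling 1.79-fold under vehicle (log2 -0.84, SE 0.11, edgeR adjusted p = 2.32e-05) and 2.07-fold under DHT (log2 -1.05, SE 0.11, edgeR adjusted p = 3.08e-06).

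Most chaperones and folding factors fell. Of 15, 9 were lower and 1 higher with PXN siRNA under vehicle, and 12 were lower and 1 higher under DHT. That is 66.7% and 86.7% called, beside 61.7% and 63.5% of genes averaging 5 CPM or more (38.3% and 39.5% lower). HSPA5 (BiP), the Hsp70 of the ER lumen that holds the sensors inactive, had 913, 1137 and 949 CPM in PXN siRNA cells given DHT and 873, 1189 and 912 CPM in PXN siRNA cells given vehicle. With non-specific siRNA, HSPA5 had 1493, 1431 and 1383 CPM given DHT and 1260.2, 1290.1 and 1122 CPM given vehicle. Under DHT the groups did not overlap, and under vehicle the PXN siRNA library numbered 2 lay among the libraries with non-specific siRNA. The log2 change was -0.30 (SE 0.11, edgeR adjusted p = 0.0351) under vehicle and -0.52 (SE 0.11, edgeR adjusted p = 0.00129) under DHT. The call under vehicle was lost with upper-quartile scaling (edgeR adjusted p = 0.136), in a fit of those 2 groups alone (0.062), and without PXN siRNA vehicle libraries 1 or 3 (0.109 and 0.0975) or non-specific siRNA vehicle libraries 1 or 2 (0.0654 and 0.0659). HYOU1, the nucleotide exchange factor of BiP, had 302, 373 and 311 CPM in PXN siRNA cells given DHT and 288, 379.7 and 278 CPM in PXN siRNA cells given vehicle. With non-specific siRNA, HYOU1 had 609, 651 and 605 CPM given DHT and 505, 552 and 461 CPM given vehicle. Its PXN siRNA libraries all lay below those with non-specific siRNA, and it fell 1.61-fold under vehicle (log2 -0.68, SE 0.11, edgeR adjusted p = 0.000174) and 1.89-fold under DHT (log2 -0.92, SE 0.11, edgeR adjusted p = 1.23e-05).

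CRELD2, an ER stress protein that can be secreted, had 43.6, 56.0 and 44.7 CPM in PXN siRNA cells given DHT and 41.7, 50.7 and 43.5 CPM in PXN siRNA cells given vehicle. With non-specific siRNA, CRELD2 had 72.4, 83.8 and 73.7 CPM given DHT and 53.7, 61.2 and 49.5 CPM given vehicle. The groups did not overlap under DHT and overlapped by 1 library under vehicle. Its log2 change was -0.67 (SE 0.11, edgeR adjusted p = 0.000114) under DHT, and -0.27 (SE 0.11, edgeR adjusted p = 0.0453) under vehicle, where the call was lost with upper-quartile scaling (edgeR adjusted p = 0.193) and without PXN siRNA vehicle libraries 1 or 3 (0.117 and 0.0928) or non-specific siRNA vehicle libraries 1 or 2 (0.0506 and 0.128). Also lower in both comparisons were SDF2L1, a partner of BiP and ERdj3, at -0.81 under vehicle and -0.82 under DHT, and MANF, a lumenal protein that binds BiP, at -0.57 and -0.80. The protein disulphide isomerases followed, with PDIA3 at -0.33 under vehicle and -0.53 under DHT, PDIA4 at -0.38 and -0.67, and PDIA6 at -0.47 and -0.68. The lectin chaperone CANX changed by -0.28 under vehicle and -0.43 under DHT. HSP90B1, CALR and DNAJC3, the last an inhibitor of PERK and a BiP co-chaperone, were lower under DHT at -0.37, -0.28 and -0.43, and under vehicle stood at -0.10, -0.09 and -0.16, which did not pass.

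DNAJB9 (ERdj4), a BiP co-chaperone that represses IRE1 and a textbook XBP1 target, went the other way. It had 48.4, 48.4 and 51.9 CPM in PXN siRNA cells given DHT and 49.6, 47.3 and 45.1 CPM in PXN siRNA cells given vehicle. With non-specific siRNA, DNAJB9 had 36.8, 44.3 and 43.8 CPM given DHT and 29.7, 32.8 and 30.0 CPM given vehicle. The groups did not overlap in either comparison. It rose 1.53-fold under vehicle (log2 0.62, SE 0.08, edgeR adjusted p = 1.24e-05) and 1.19-fold under DHT (log2 0.25, SE 0.07, edgeR adjusted p = 0.0115). The call under DHT was lost without the PXN siRNA DHT library numbered 3 (edgeR adjusted p = 0.0718) or the non-specific siRNA DHT library numbered 1 (0.0906). The co-chaperone DNAJB11 stood at -0.03 under vehicle and -0.13 under DHT, and the oxidase ERO1L at 0.17 and -0.05, and neither passed in either.

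The library numbered 2 was the highest of its group for 13 of the 15 chaperone genes with PXN siRNA and DHT and for 12 with PXN siRNA and vehicle, against 10 with non-specific siRNA and DHT and 13 with non-specific siRNA and vehicle. In the ATF4 group it was the lowest for 7 of 11 genes with PXN siRNA and DHT and for 8 with PXN siRNA and vehicle, against 1 with non-specific siRNA and DHT and 1 with non-specific siRNA and vehicle. The PXN level of those libraries was 18.0 CPM with PXN siRNA and DHT, between the other 2, and 21.2 CPM with PXN siRNA and vehicle, the highest of that group. With both vehicle libraries numbered 2 left out, an alternative added after seeing their mitochondrial share, 9 members were higher and 20 lower under vehicle, and 9 were higher and 25 lower under DHT.

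ER-associated degradation, which pulls misfolded protein back to the proteasome, was split. Of 7 genes, 3 were higher and 2 lower with PXN siRNA under vehicle, and none higher and 3 lower under DHT. That is 71.4% and 42.9% called, beside 61.7% and 63.5% of genes averaging 5 CPM or more. EDEM1, a lectin that extracts misfolded glycoproteins and an XBP1 target, had 91.6, 88.9 and 87.0 CPM in PXN siRNA cells given DHT and 91.9, 93.8 and 84.6 CPM in PXN siRNA cells given vehicle. With non-specific siRNA, EDEM1 had 140.0, 139 and 139.9 CPM given DHT and 126, 129.7 and 109 CPM given vehicle. The PXN siRNA libraries lay below all others, and EDEM1 changed by -0.43 (SE 0.07, edgeR adjusted p = 8.72e-05) on the log2 scale under vehicle and by -0.65 (SE 0.07, edgeR adjusted p = 2.33e-06) under DHT. SYVN1 (HRD1), the ubiquitin ligase of the pathway, had 85.8, 103 and 91.9 CPM in PXN siRNA cells given DHT and 82.8, 92.4 and 81.0 CPM in PXN siRNA cells given vehicle. With non-specific siRNA, SYVN1 had 126, 140.0 and 121 CPM given DHT and 99.9, 131 and 97.0 CPM given vehicle. Its groups did not overlap in either comparison, with log2 changes of -0.35 (SE 0.11, edgeR adjusted p = 0.012) under vehicle, not called with upper-quartile scaling (0.0637), and -0.47 (SE 0.11, edgeR adjusted p = 0.00191) under DHT. HERPUD1, a membrane component that recruits the ligase complex, had 183, 187 and 182 CPM in PXN siRNA cells given DHT and 171, 172 and 171 CPM in PXN siRNA cells given vehicle. With non-specific siRNA, HERPUD1 had 171, 171 and 165 CPM given DHT and 138, 149 and 129 CPM given vehicle. The 3 libraries with non-specific siRNA and vehicle were the lowest of the 12. HERPUD1 rose with PXN siRNA under vehicle by 0.30 (SE 0.06, edgeR adjusted p = 0.000548) on the log2 scale and stood at 0.12 (SE 0.06, edgeR adjusted p = 0.0914) under DHT. It also passed under DHT with upper-quartile scaling (0.00513). DERL2, a rhomboid-like channel component, and EDEM2 were higher under vehicle at 0.27 and 0.23 and did not pass under DHT at 0.06 and -0.05. SEL1L, the adaptor of SYVN1, was lower under DHT at -0.28 and did not pass under vehicle at 0.10, and DERL1 stood at 0.02 and -0.16 and passed in neither.

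The 3 genes of protein entry fell in both comparisons. SEC61B, a subunit of the translocation channel, had 79.4, 80.2 and 75.3 CPM in PXN siRNA cells given DHT and 74.3, 79.5 and 72.9 CPM in PXN siRNA cells given vehicle. With non-specific siRNA, SEC61B had 110.4, 121 and 125 CPM given DHT and 109, 103 and 113 CPM given vehicle. Its PXN siRNA libraries lay below all 6 others. SSR3, a subunit of the translocon-associated TRAP complex, had 170.0, 196 and 169.6 CPM in PXN siRNA cells given DHT and 161, 200.1 and 164 CPM in PXN siRNA cells given vehicle. With non-specific siRNA, SSR3 had 282, 345 and 337 CPM given DHT and 252, 271 and 269 CPM given vehicle. It showed the same separation. SPCS3, a subunit of signal peptidase, had 96.6, 102 and 98.7 CPM in PXN siRNA cells given DHT and 87.7, 112 and 88.9 CPM in PXN siRNA cells given vehicle. With non-specific siRNA, SPCS3 had 165, 190.4 and 189.8 CPM given DHT and 134, 143 and 137 CPM given vehicle. For SPCS3 too, each PXN siRNA library lay below each library with non-specific siRNA. Under vehicle the log2 changes were -0.52 (SE 0.06, edgeR adjusted p = 1.18e-05) for SEC61B, -0.59 (SE 0.10, edgeR adjusted p = 0.000134) for SSR3 and -0.52 (SE 0.09, edgeR adjusted p = 0.000188) for SPCS3. Under DHT SEC61B changed by -0.60 (SE 0.06, edgeR adjusted p = 2.83e-06), SSR3 by -0.85 (SE 0.10, edgeR adjusted p = 5.34e-06) and SPCS3 by -0.87 (SE 0.09, edgeR adjusted p = 1.91e-06).

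ATF4 and its targets moved in both directions. ATF4 itself, which is controlled mainly by translation, had 274, 262 and 262 CPM in PXN siRNA cells given DHT and 261, 261 and 259 CPM in PXN siRNA cells given vehicle. With non-specific siRNA, ATF4 had 339.9, 316 and 311 CPM given DHT and 332, 334 and 349 CPM given vehicle. All 6 PXN siRNA libraries lay below all 6 with non-specific siRNA, and the log2 change was -0.38 (SE 0.06, edgeR adjusted p = 6.17e-05) under vehicle and -0.28 (SE 0.06, edgeR adjusted p = 0.000757) under DHT. DDIT3 (CHOP), the transcription factor that links lasting stress to cell death, had 69.4, 51.7 and 68.6 CPM in PXN siRNA cells given DHT and 69.1, 54.9 and 69.9 CPM in PXN siRNA cells given vehicle. With non-specific siRNA, DDIT3 had 23.5, 23.1 and 21.2 CPM given DHT and 22.1, 28.2 and 23.1 CPM given vehicle. Every PXN siRNA library stood far above every library with non-specific siRNA. Among the 41 it had the highest fold change in both comparisons, rising 2.64-fold under vehicle (log2 1.40, SE 0.12, edgeR adjusted p = 6.83e-07) and 2.80-fold under DHT (log2 1.48, SE 0.13, edgeR adjusted p = 4.5e-07). PPP1R15A (GADD34), which directs the phosphatase that reverses eIF2 phosphorylation, had 18.3, 16.0 and 17.3 CPM in PXN siRNA cells given DHT and 18.5, 13.6 and 18.6 CPM in PXN siRNA cells given vehicle. With non-specific siRNA, PPP1R15A had 6.30, 7.41 and 6.06 CPM given DHT and 6.67, 8.38 and 6.67 CPM given vehicle. Its groups were far apart, and it rose 2.33-fold under vehicle (log2 1.22, SE 0.13, edgeR adjusted p = 4.49e-06) and 2.61-fold under DHT (log2 1.38, SE 0.14, edgeR adjusted p = 1.51e-06). VLDLR, a lipoprotein receptor with ATF4 among its known activators, had 49.9, 37.4 and 45.7 CPM in PXN siRNA cells given DHT and 56.0, 44.2 and 47.1 CPM in PXN siRNA cells given vehicle. With non-specific siRNA, VLDLR had 24.6, 20.0 and 20.9 CPM given DHT and 23.1, 22.5 and 20.0 CPM given vehicle. It rose 2.24-fold under vehicle (log2 1.17, SE 0.12, edgeR adjusted p = 1.88e-06) and 2.03-fold under DHT (log2 1.02, SE 0.12, edgeR adjusted p = 5.76e-06), with no overlap between groups.

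ATF3, a stress-induced repressor of the ATF family, rose 2.24-fold under vehicle (log2 1.16, SE 0.14, edgeR adjusted p = 1.12e-05) and 2.06-fold under DHT (log2 1.05, SE 0.14, edgeR adjusted p = 2.7e-05). It averaged 88.7 ± 12.7 CPM with PXN siRNA and DHT and 91.2 ± 15.5 CPM with PXN siRNA and vehicle, against 43.0 ± 6.26 CPM with non-specific siRNA and DHT and 40.7 ± 4.87 CPM with non-specific siRNA and vehicle (SD, n = 3 each). CEBPG, a dimer partner of ATF4, rose by 0.24 on the log2 scale under vehicle and 0.26 under DHT. CHAC1, which degrades glutathione, and CEBPB, a C/EBP factor, were higher under DHT at 0.51 and 0.38, and under vehicle did not pass at 0.16 and 0.16. Opposite to these stood ASNS, asparagine synthetase and a standard ATF4 target, which averaged 103 ± 8.97 CPM with PXN siRNA and DHT and 106 ± 10.2 CPM with PXN siRNA and vehicle, against 147 ± 6.28 CPM with non-specific siRNA and DHT and 172 ± 12.6 CPM with non-specific siRNA and vehicle (SD, n = 3 each). ASNS changed by -0.70 (SE 0.08, edgeR adjusted p = 9.53e-06) on the log2 scale under vehicle and by -0.51 (SE 0.08, edgeR adjusted p = 0.000144) under DHT. DDIT4, an inhibitor of mTORC1, was lower under vehicle at -0.28 and did not pass under DHT at -0.15. TRIB3, a pseudokinase that inhibits ATF4, was lower under DHT at -0.22 and did not pass under vehicle at -0.16. ATF3, CEBPG, CHAC1 and ASNS all held a CARE, so the motif was shared by transcripts that moved in opposite directions.

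Calls of further members depended on single libraries or on the scaling. Under vehicle CEBPG was not called without PXN siRNA library 1 or 3 or non-specific siRNA library 2 (edgeR adjusted p of 0.0562 to 0.0740), EDEM2 without PXN siRNA library 1 or 2 or non-specific siRNA library 3 (0.0516 to 0.0705), DDIT4 without PXN siRNA library 1 (0.0580), and PDIA4 without PXN siRNA library 3 (0.0526), all of these libraries being those with vehicle. Under DHT, with DHT libraries, CALR was not called without PXN siRNA library 1 or 3 or non-specific siRNA library 1 (0.0635 to 0.115), CEBPB without PXN siRNA library 1 or 2 or non-specific siRNA library 3 (0.0512 to 0.0620), and TRIB3 without PXN siRNA library 1 or non-specific siRNA library 2 or 3 (0.0573 to 0.0834). Upper-quartile scaling ended the calls of CANX (0.0826), PDIA4 (0.0588) and DDIT4 (0.0958) under vehicle and of SEL1L (0.0633), CALR (0.167) and TRIB3 (0.228) under DHT. With the replicate number as a block under vehicle, DNAJC3 and TRIB3 were lower and ERO1L was higher as well (edgeR adjusted p of 0.0168 for DNAJC3, 0.034 for TRIB3 and 0.0155 for ERO1L).

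**Figure D2:**
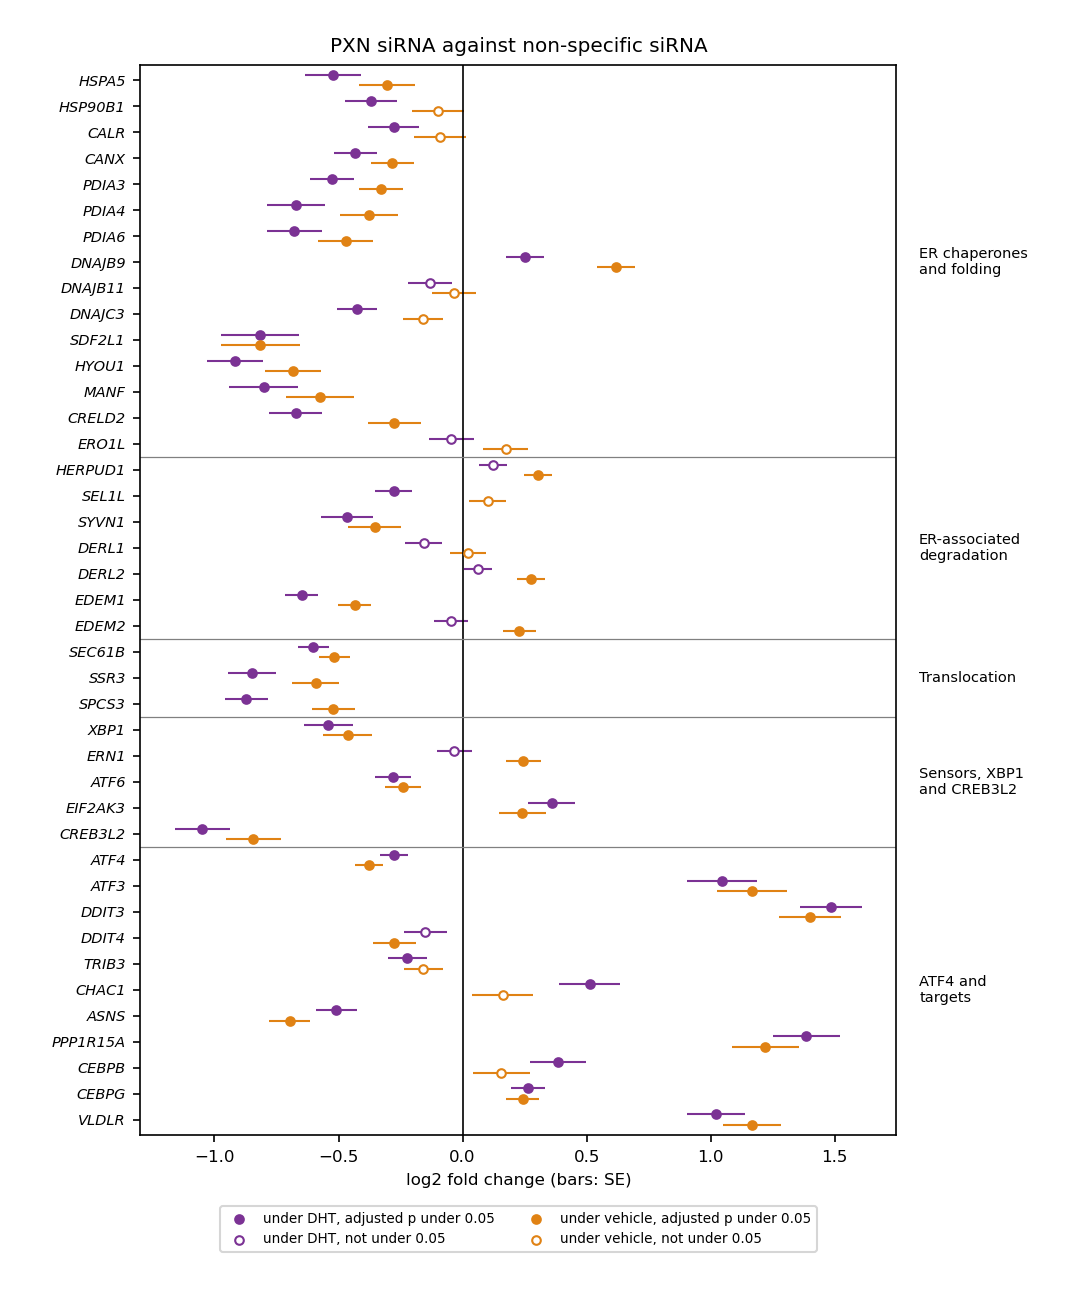
Points give the edgeR log2 fold change of PXN siRNA against non-specific siRNA for each of the 41 genes, under DHT and under vehicle, with bars of 1 SE, filled where the adjusted p was under 0.05. The ATF4 group spans from -0.70 for ASNS to 1.48 for DDIT3, while 13 of 15 chaperone genes lie left of 0 under vehicle and 14 of 15 under DHT.

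**Figure D3:**
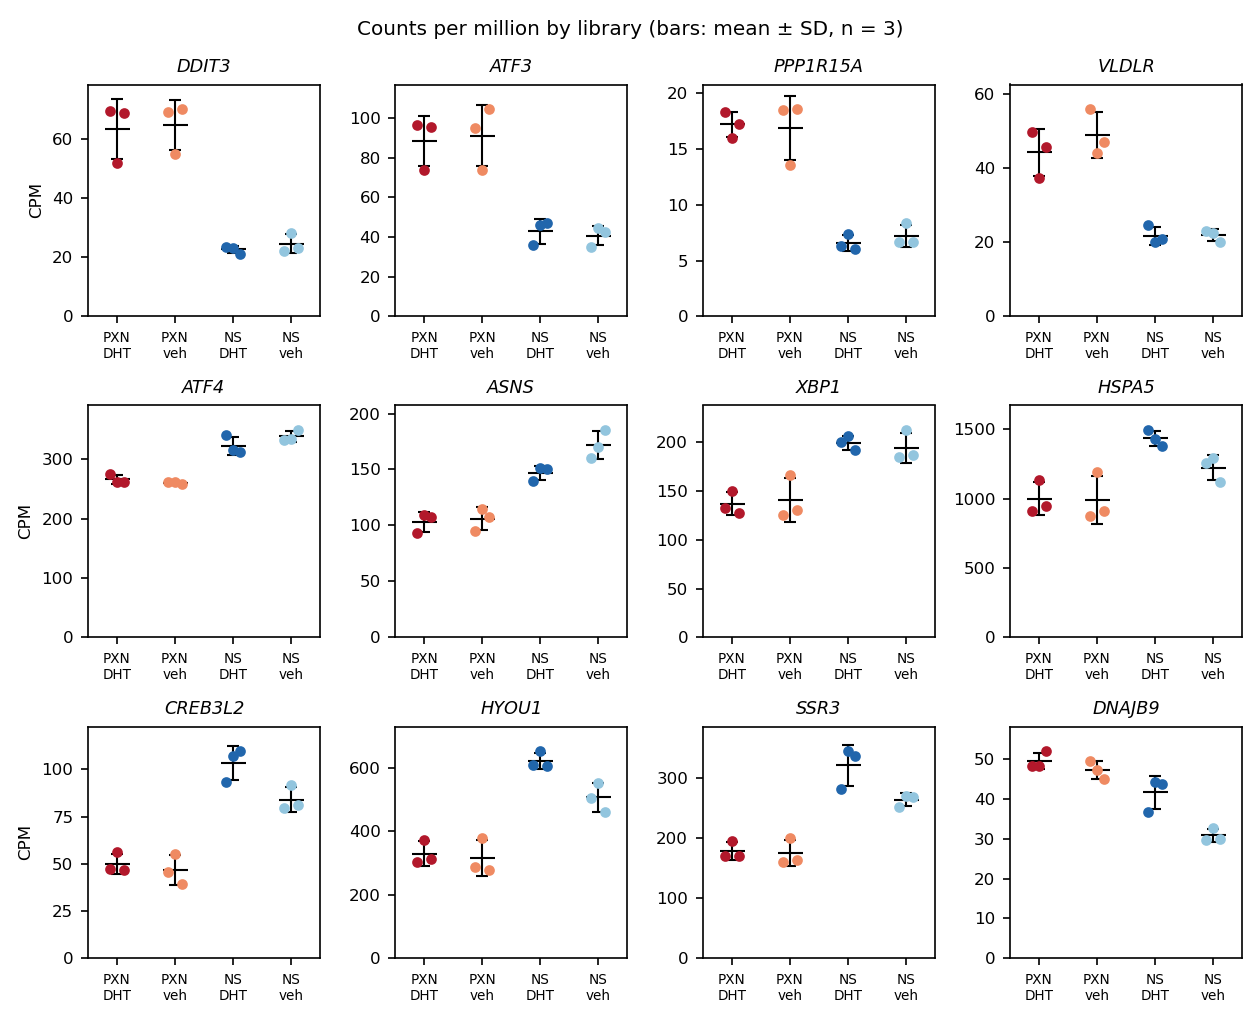
CPM of 12 member genes in each of the 12 libraries, with the mean and SD of the 3 libraries in each group. In the top row the PXN siRNA libraries stand above all libraries with non-specific siRNA, and in ATF4, ASNS, XBP1, CREB3L2, HYOU1 and SSR3 they stand below.

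The 13 genes assigned to the IRE1/XBP1 branch (ERN1, XBP1 and 11 known XBP1 targets) and the 12 of the ATF4 branch (EIF2AK3, ATF4 and its targets) were then set side by side. In the IRE1/XBP1 branch 4 genes were higher and 6 lower with PXN siRNA under vehicle, and 1 was higher and 7 lower under DHT. In the ATF4 branch 6 were higher and 3 lower under vehicle, and 8 were higher and 3 lower under DHT. Called were 76.9% of the IRE1/XBP1 genes and 75% of the ATF4 genes under vehicle, and 61.5% and 91.7% under DHT. Of genes averaging 5 CPM or more 61.7% were called under vehicle (23.4% higher, 38.3% lower) and 63.5% under DHT (24% higher, 39.5% lower). The IRE1/XBP1 share under DHT lay near that of such genes. The median log2 change was -0.16 under vehicle and -0.43 under DHT for the IRE1/XBP1 branch and 0.20 and 0.37 for the ATF4 branch. The other 16 genes were ATF6, CREB3L2 and targets of ATF6 or of several branches. Their medians were -0.29 and -0.49, with 1 higher and 11 lower under vehicle and none higher and 14 lower under DHT. Of those 16, 75% were called under vehicle and 87.5% under DHT. These counts and medians describe the lists, and no test was run on the difference between branches. The lists were chosen with earlier results of these data known. A further 26 ATF4 targets, described below, had medians of opposite sign to the ATF4 branch, -0.31 under vehicle and -0.33 under DHT. The IRE1/XBP1 median under vehicle was -0.28 without the PXN siRNA library numbered 2 and -0.06 with upper-quartile scaling. The ATF4 median under vehicle was 0.12 without the PXN siRNA library numbered 3 and 0.30 with upper-quartile scaling. Of the 7 members with an ERSE, 5 were lower under vehicle and 7 under DHT, beside 26.3% and 26.7% of all genes and 38.3% and 39.5% of those averaging 5 CPM or more. Of the 3 with an ERSE-II, 1 was higher and 2 lower under vehicle and 2 were lower under DHT, and both with a UPRE were lower in each comparison. Of the 6 with a CARE, 3 were higher and 2 lower in each comparison.

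In single libraries the branches kept apart by siRNA to different degrees. Relative to the mean of non-specific siRNA and vehicle, the median over the 12 ATF4-branch genes was 0.13 to 0.30 in PXN siRNA libraries with DHT and 0.03 to 0.32 with vehicle, against -0.15 to -0.06 with non-specific siRNA and DHT and -0.09 to 0.05 with non-specific siRNA and vehicle, on the log2(CPM + 0.5) scale. The median over the 13 IRE1/XBP1 genes was -0.18 to -0.06 in PXN siRNA libraries with DHT and -0.30 to 0.04 with vehicle, against 0.16 to 0.21 with non-specific siRNA and DHT and -0.04 to 0.08 with non-specific siRNA and vehicle. The PXN siRNA vehicle library numbered 2 was the only one of its group within the range of the libraries with non-specific siRNA and vehicle, in both branches.

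**Figure D4:**
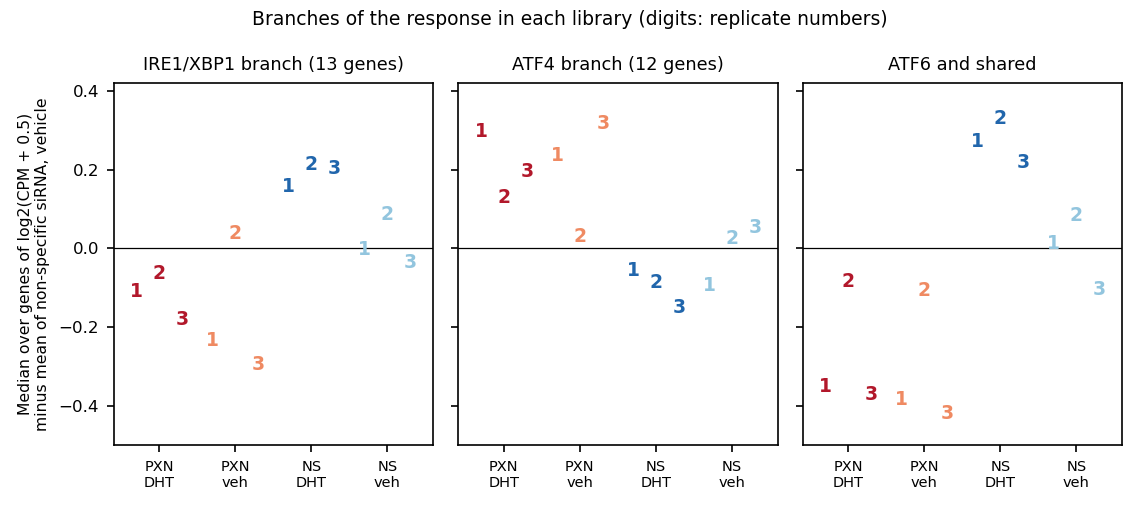
The panels show the 13 IRE1/XBP1 genes, the 12 ATF4 genes and the other 16. Each digit is a library, named by its replicate number, at the median over the branch's genes of log2(CPM + 0.5) minus the mean of the libraries with non-specific siRNA and vehicle. DHT libraries with non-specific siRNA lie at 0.16 to 0.21 in the IRE1/XBP1 branch and at -0.15 to -0.06 in the ATF4 branch, and the PXN siRNA vehicle library numbered 2 lies apart from its group.

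The second question was how androgen moved the same genes. In cells with non-specific siRNA, 7 of the 41 members were higher with DHT, none was lower and 34 did not pass, beside 4.87% of all tested genes called (2.72% higher, 2.16% lower) and 6.55% of those averaging 5 CPM or more (3.57% higher, 2.98% lower). The DHT and vehicle libraries did not overlap for 19 members, beside 20.2% of all genes. At an unadjusted p under 0.05 there were 22 members, beside 16.6% of all genes. All 7 belong to folding, degradation, entry or IRE1, and 0 of the 12 genes of the ATF4 branch passed (4 at an unadjusted p under 0.05, and 0 by DESeq2 as well). With only 4.87% of all genes called, 0 of 12 cannot be read as particular to the ATF4 branch. DNAJB9 rose 1.35-fold with DHT (log2 0.43, SE 0.08, edgeR adjusted p = 0.00388), and the DHT libraries lay above those with vehicle. CRELD2 rose 1.40-fold (log2 0.48, SE 0.11, edgeR adjusted p = 0.0156). SEL1L had 378, 359 and 339.9 CPM with non-specific siRNA and DHT, against 288, 280.1 and 243 CPM with non-specific siRNA and vehicle, and in PXN siRNA cells 299.8, 301 and 287 CPM with DHT, against 295, 309 and 267 CPM with vehicle. Its DHT and vehicle libraries separated with non-specific siRNA and overlapped with PXN siRNA, and its log2 change with non-specific siRNA was 0.41 (SE 0.08, edgeR adjusted p = 0.00542). HERPUD1 changed by 0.29 (SE 0.06, edgeR adjusted p = 0.00959) on the log2 scale, SPCS3 by 0.39 (SE 0.09, edgeR adjusted p = 0.0156), DNAJC3 by 0.31 (SE 0.08, edgeR adjusted p = 0.0352) and ERN1 by 0.28 (SE 0.07, edgeR adjusted p = 0.0324).

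With the replicate number as a block, since same-numbered libraries of these 2 groups deviated together, 19 members were higher and 2 lower, EIF2AK3 and ASNS, at 12.1% of all genes called. The added genes include HYOU1, PDIA4, MANF, SDF2L1, SSR3 and EDEM1, each of which stood above vehicle without the block. DESeq2 called 13 members. Of the 13 IRE1/XBP1 genes 4 were higher and 9 did not pass (8 higher with the block), with a median log2 change of 0.20. Of the 12 ATF4-branch genes none passed (1 higher and 2 lower with the block, the rise being TRIB3), with a median of -0.08. Of the other 16, 3 were higher (10 with the block), with a median of 0.26. The median over all genes was -0.01. XBP1 mRNA stood at 0.04 (SE 0.10, edgeR adjusted p = 0.911) and HSPA5 at 0.23 (SE 0.11, edgeR adjusted p = 0.322), neither past the threshold. The count of 7 leaned on single libraries: it was 3 without the non-specific siRNA DHT library numbered 2 or the vehicle library numbered 1, and 4 without the DHT library numbered 3 or the vehicle library numbered 3. DNAJB9, SEL1L and HERPUD1 stayed higher in each of these, while CRELD2, SPCS3, DNAJC3 and ERN1 were lost in at least 1, with edgeR adjusted p of 0.0501 to 0.0771 for CRELD2, 0.0549 to 0.0702 for SPCS3, 0.0879 to 0.131 for DNAJC3 and up to 0.142 for ERN1.

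In PXN siRNA cells DHT moved no member past the threshold by edgeR, beside 0.184% of all tested genes and 0.235% of those averaging 5 CPM or more, all of them higher. At an unadjusted p under 0.05 there were 2 members, beside 7.46% of all genes, and DESeq2 called 0. Libraries did not overlap for 4 members, beside 13.6% of all genes. With the replicate block 1 member, SDF2L1, passed. SDF2L1 had 17.2, 27.6 and 19.9 CPM with PXN siRNA and DHT, against 12.5, 16.8 and 17.1 CPM with PXN siRNA and vehicle, and 33.0, 44.1 and 37.0 CPM with non-specific siRNA and DHT, against 25.5, 28.5 and 27.8 CPM with non-specific siRNA and vehicle. Every DHT library was above every vehicle library of the same siRNA, and the log2 change was 0.48 (SE 0.16, edgeR adjusted p = 0.411) with PXN siRNA and 0.48 (SE 0.15, edgeR adjusted p = 0.105) with non-specific siRNA. The members' median was 0.03 with PXN siRNA and 0.15 with non-specific siRNA. DNAJB9 stood at 0.07 (SE 0.07, edgeR adjusted p = 0.913), SEL1L at 0.03 (SE 0.08, edgeR adjusted p = 0.971) and HERPUD1 at 0.10 (SE 0.06, edgeR adjusted p = 0.777) with PXN siRNA.

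These smaller values do not by themselves show a difference between the siRNAs, so the difference was tested as the interaction of DHT and PXN siRNA. By edgeR 0 of the 41 members and 0% of all genes passed, and DESeq2 called 0 members. With the replicate number as a block 2 passed, SEL1L (edgeR adjusted p = 0.0362) and CRELD2 (edgeR adjusted p = 0.0267), both lower, beside 0.314% of all genes, although same-numbered libraries did not deviate together over all 4 groups. At an unadjusted p under 0.05 there were 10 members, beside 4.21% of all genes. The interaction was negative for 32 of 41 members, or 78%, beside 47% of all genes and 48.7% of those averaging 5 CPM or more. Negative were all 13 IRE1/XBP1 genes, all 16 genes outside the 2 branches, and 3 of the 12 ATF4-branch genes. The IRE1/XBP1 genes and those 16 had the same median, -0.21, so the sign is not particular to the IRE1/XBP1 branch. The median over the members was -0.18, beside 0.01 over all genes. The smallest unadjusted p were those of SEL1L (log2 difference -0.38, SE 0.11, edgeR adjusted p = 0.737), DNAJB9 (-0.37, SE 0.11, edgeR adjusted p = 0.741) and EDEM2 (-0.28, SE 0.10, edgeR adjusted p = 1). EDEM2 had 25.3, 26.0 and 24.3 CPM with PXN siRNA and DHT, against 29.0, 29.0 and 26.0 CPM with PXN siRNA and vehicle, and 25.0, 26.9 and 26.1 CPM with non-specific siRNA and DHT, against 25.1, 23.7 and 22.9 CPM with non-specific siRNA and vehicle. The ATF4 branch had a median interaction of 0.11.

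**Figure D5:**
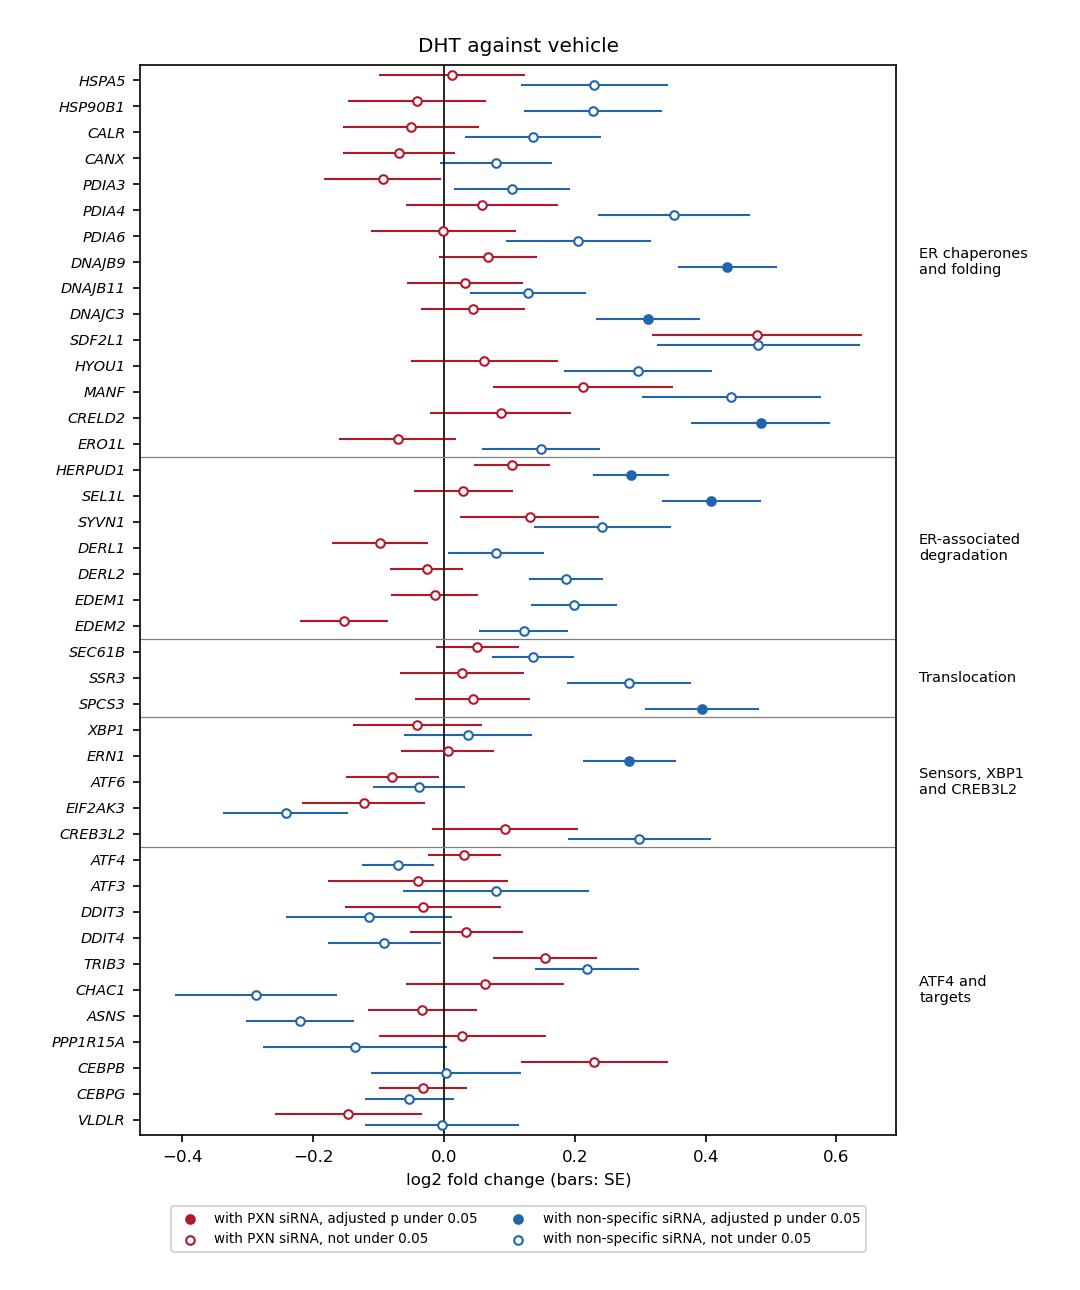
Points give the edgeR log2 fold change of DHT against vehicle for the 41 genes, with PXN siRNA and with non-specific siRNA, with bars of 1 SE, filled where the adjusted p was under 0.05. With non-specific siRNA all 15 chaperone genes lie right of 0 and 3 are filled, and with PXN siRNA none is filled.

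PXN siRNA under vehicle and DHT with non-specific siRNA share the libraries with non-specific siRNA and vehicle, so their values are only set side by side. DNAJB9, HERPUD1 and ERN1 changed by 0.62, 0.30 and 0.24 on the log2 scale with PXN siRNA and by 0.43, 0.29 and 0.28 with DHT. SPCS3 and CRELD2 were lower with PXN siRNA (-0.52 and -0.27 under vehicle) and higher with DHT (0.39 and 0.48).

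Another 87 genes of the same pathways were read from lists, and 86 could be tested. With PXN siRNA 7 were higher and 52 lower under vehicle, which is 68.6% called, and 7 were higher and 58 lower under DHT, or 75.6%. Of all tested genes 50.2% and 51.8% were called, and of those averaging 5 CPM or more 61.7% and 63.5%, with 38.3% and 39.5% lower. Among 20 further genes of folding and degradation none was higher, and 12 were lower under vehicle and 15 under DHT. That is 60% and 75% called, the first near the share of genes averaging 5 CPM or more. ERLEC1, a lectin of the degradation pathway, changed by -0.58 (SE 0.07, edgeR adjusted p = 6.54e-06) under vehicle and -0.61 (SE 0.07, edgeR adjusted p = 3.75e-06) under DHT, and the ubiquitin-conjugating enzyme UBE2G2 by -1.12 (SE 0.13, edgeR adjusted p = 5.84e-06) and -1.02 (SE 0.13, edgeR adjusted p = 1.21e-05). Among 17 genes of protein entry and transport none was higher, and 10 were lower under vehicle and 14 under DHT. That is 58.8% and 82.4% called, the first again near the share of such genes. SSR1, a TRAP subunit like SSR3, averaged 169.7 ± 13.7 CPM with PXN siRNA and DHT and 160.3 ± 27.4 CPM with PXN siRNA and vehicle, against 439.9 ± 29.0 CPM with non-specific siRNA and DHT and 366 ± 17.9 CPM with non-specific siRNA and vehicle (SD, n = 3 each). It fell 2.28-fold under vehicle and 2.59-fold under DHT. SRPRB, of the signal recognition particle receptor, changed by -0.55 under vehicle and -0.71 under DHT, and KDELR2, which returns escaped ER proteins, by -0.47 and -0.69, all 4 past the threshold.

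Among 10 further UPR regulators 3 were higher and 4 lower in each comparison. That is 70% called in each, beside 61.7% and 63.5% of genes averaging 5 CPM or more. TMBIM6, a membrane protein that restrains IRE1, averaged 598 ± 53.7 CPM with PXN siRNA and DHT and 625 ± 83.2 CPM with PXN siRNA and vehicle, against 1485 ± 127 CPM with non-specific siRNA and DHT and 1524 ± 128 CPM with non-specific siRNA and vehicle (SD, n = 3 each), a fall of 2.44-fold under vehicle and 2.48-fold under DHT. NFE2L2, the oxidative stress factor, was higher at 0.32 (SE 0.07, edgeR adjusted p = 0.00178) under vehicle and 0.21 (SE 0.07, edgeR adjusted p = 0.0233) under DHT, where the call was lost in 10 of 19 alternatives (edgeR or DESeq2 adjusted p up to 0.173). CREB3L4, an androgen-responsive relative of CREB3L2, was lower at -0.42 (SE 0.14, edgeR adjusted p = 0.0238) under vehicle, a call lost in 4 alternatives, and at -0.77 (SE 0.14, edgeR adjusted p = 0.000445) under DHT. Among 13 eIF2 kinases and factors of its cycle none was higher and 8 were lower in each comparison. That is 61.5% called in each, near the share of genes averaging 5 CPM or more. EIF2S3, the gamma subunit of eIF2, fell 2.04-fold under vehicle and 1.92-fold under DHT, EIF2S2, the beta subunit, changed by -0.55 and -0.55 on the log2 scale, and PPP1R15B, the constitutive partner of the eIF2 phosphatase, by -0.39 and -0.48.

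Among 26 further ATF4 targets 4 were higher and 18 lower under vehicle, and 4 were higher and 17 lower under DHT, with medians of -0.31 and -0.33. Called were 84.6% and 80.8% of them, beside 61.7% and 63.5% of genes averaging 5 CPM or more. Among the lower ones PHGDH, the first enzyme of serine synthesis, changed by -0.98 (SE 0.10, edgeR adjusted p = 2.2e-06) under vehicle and -0.84 (SE 0.10, edgeR adjusted p = 8.09e-06) under DHT, and YARS, tyrosyl-tRNA synthetase, by -0.44 (SE 0.05, edgeR adjusted p = 1.03e-05) and -0.40 (SE 0.05, edgeR adjusted p = 2.23e-05). The 4 higher genes were SLC3A2, the heavy chain of amino acid transporters, and SESN2, JDP2 and KLHL24, the last 3 named after their values were seen. SLC3A2 rose 1.61-fold under vehicle and 1.63-fold under DHT, while SLC7A5, its transporter partner, was lower at -0.95 (SE 0.14, edgeR adjusted p = 5.69e-05) under vehicle and at -0.44 (SE 0.14, edgeR adjusted p = 0.0192) under DHT, where the call was lost in 3 alternatives. The 12 genes of the ATF4 branch and these 26 further targets had medians of opposite sign, 0.20 for the branch and -0.31 for the further targets under vehicle, and 0.37 and -0.33 under DHT.

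With DHT and non-specific siRNA 5 of the 86 genes were higher and 2 lower. That is 8.14% of them, near the 6.55% of all genes averaging 5 CPM or more and the 4.87% of all tested genes. With the replicate number as a block 17 were higher and 5 lower, at 12.1% of all genes called, and DESeq2 called 12. Only 3 were called without the non-specific siRNA DHT library numbered 2, or the vehicle library numbered 1 or 3, 4 without the DHT library numbered 3, and 11 without the DHT library numbered 1. The higher ones were in folding, degradation and transport: EDEM3, a mannosidase, changed by 0.54 (SE 0.11, edgeR adjusted p = 0.00812), PDIA5 by 0.57 (SE 0.12, edgeR adjusted p = 0.0103) and SEC24D, a coat protein of ER exit, by 0.44 (SE 0.12, edgeR adjusted p = 0.0487). The SEC24D call was lost in 13 of 19 alternatives, among them that without the non-specific siRNA DHT library numbered 3 (edgeR adjusted p = 0.234). The other 2 were UBE2J1 and WFS1, named after their values were seen. The lower ones were both amino acid genes of the ATF4 list, SLC7A5 at -0.83 (SE 0.14, edgeR adjusted p = 0.00289) and PSAT1, of serine synthesis, at -0.28 (SE 0.07, edgeR adjusted p = 0.0374). The PSAT1 call was lost in 9 alternatives, with an edgeR adjusted p of 0.192 without the non-specific siRNA vehicle library numbered 3, and that of PDIA5 without the same library (0.0501).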

How the data were processed

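Gene counts of 12 libraries in 4 groups of 3 were analysed, with groups taken from the samples' own labels. Qiagen RNeasy Plus Mini extraction preceded Illumina TruSeq Stranded mRNA library preparation, per the labels' protocols. The authors deposited raw counts by gene symbol, whole numbers without normalization. The submitters' processing notes name featureCounts, Trimmomatic 0.32, STAR 2.4.2a, Subread 1.5.0p3 and GRCh38. No source used here gives the strand setting, the annotation, the handling of multiply mapped reads or the siRNA sequences, so values of overlapping, antisense or pseudogene-bearing genes are less certain. The table has 36137 gene symbols, none blank. No 2 libraries of a group agreed within sampling noise (chi-square per gene 6.7 to 29.8), and all 12 were kept.

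In R 4.3.3, edgeR 4.0.16 kept 18468 genes by filterByExpr, applied TMM scaling and fitted 1 quasi-likelihood model with 4 group means to all libraries (8 residual degrees of freedom). The contrasts were PXN siRNA under vehicle and under DHT, DHT with each siRNA, and the interaction. P-values were adjusted by Benjamini-Hochberg over all tested genes, with calls under 0.05. CPM rest on TMM-scaled totals. Values of a group stand in the order of replicates 1, 2 and 3. SEs of log2 fold changes were derived from the size of the change and the F value. The fit was also run on simulated data in which few genes changed, equally up and down. The PXN siRNA comparisons had far more called genes, so that run does not bear on the scaling there. Promoters and figures used Python 3.11.15. Library totals were 34321000 to 38633456 counts, and precision is given by the spread over libraries.

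The members and lists were chosen with earlier results of these data known. Named with full values were HSPA5, XBP1, the 3 sensors, ATF4 and DDIT3, the 2 called members of each role with the smallest p in each pairwise contrast, the 3 smallest p of the interaction, and 2 called genes per further list. Other members are given to account for all 41. The 19 alternatives were DESeq2 size factors, upper-quartile scaling, no low-count filter, DESeq2 1.42.0 (Wald test), a fit per comparison, the replicate block, the leaving out of each library, and the leaving out of both vehicle libraries numbered 2, which was added after seeing the data.

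Groups share replicate numbers in the labels, which do not say what the numbers mark. Numbers were taken to pair 2 groups where the deviations of each same-numbered pair from the group means correlated over 0.1 on edgeR's log CPM. They did for PXN siRNA under vehicle (0.121 to 0.21), DHT with non-specific siRNA (0.145 to 0.383) and, narrowly, DHT with PXN siRNA (0.1 to 0.307), and did not for PXN siRNA under DHT (0.0769 to 0.284). On log2(CPM + 0.5) those 4 lay at 0.125 to 0.503, and the pairs of the interaction at 0.000468 to 0.503.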

Additional observations from a re-analysis of the deposited data

How the results depend on the processing

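No member called in the reported fit or in an alternative changed sign between the 2. Upper-quartile scaling turned the sign of members not called, CALR and DNAJB11 for PXN siRNA under vehicle and ERN1, EDEM2 and ERO1L under DHT. It also moved the balance of all called genes with PXN siRNA. Slightly more were lower than higher as reported, and with that scaling 60.2% were higher under vehicle and 60.7% under DHT. Counts of called members moved by over 1.5 times as follows. For PXN siRNA under vehicle, 13 members were lower with upper-quartile scaling, against 20 as reported. For DHT with non-specific siRNA, 7 members as reported became 13 without a low-count filter, 13 with DESeq2's Wald test and 12, all higher, with both vehicle libraries numbered 2 left out. With the replicate block they became 21, of which 19 were higher and 2 lower, and leaving out 1 library gave 3 to 10, all higher. For DHT with PXN siRNA, 0 became 1, SDF2L1, without a low-count filter and with the replicate block. For the interaction, 0 became 2 with the replicate block, SEL1L and CRELD2, both lower, where the replicate numbers share only a number. A fit of only the groups compared does not apply to the interaction, which uses all 4. The replicate block gave 34 members for PXN siRNA under vehicle and 36 under DHT, and moved no other count of called members by over 1.5 times.

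Branch medians moved by more than their spread in a few cases. Under DHT with upper-quartile scaling the log2 medians for PXN siRNA were -0.32 for the IRE1/XBP1 genes and 0.47 for the ATF4 genes. Leaving out 1 library gave IRE1/XBP1 medians of -0.28 to -0.11 in the comparison of siRNAs under vehicle and 0.18 to 0.25 in that of DHT without PXN siRNA, and ATF4 medians of 0.26 to 0.41 for PXN siRNA under DHT. With both vehicle libraries numbered 2 left out the IRE1/XBP1 median for DHT with non-specific siRNA was 0.25. The cause was not tested. With 3 libraries a group, a p that misses the threshold does not show that a gene did not change, and depth limits only the lowest members: PPP1R15A, the lowest, had 204 counts in its lowest library.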
